A study of Rattus norvegicus with 5 samples.

Results

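Of 10 genes for secreted inflammatory signals, adhesion molecules and inhibitors of nuclear factor kappa B (NF-kB), 9 were measured among the 17048 gene rows of 5 RNA-seq libraries made from smooth muscle cells of rat vessels. The members were chosen by gene symbol, with 1 row each: the cytokines Il6 and Lif, the chemokines Ccl2, Ccl7, Cxcl1 and Cxcl12, the adhesion molecules Icam1 and Vcam1, and the inhibitor Nfkbia. Expression of the tenth, Tnfaip3, was not analysed here, and it enters only the promoter search. The libraries were 1 each of cells pretreated with In-Cl (0.1 µM) and then kept in hypoxia for 24 h, cells pretreated with DPN (0.1 µM) before the same hypoxia, cells pretreated with E2 (10 nM) before the same hypoxia, cells in hypoxia for 24 h with no compound, and control cells. In-Cl is an indazole, DPN a nonsteroidal diarylpropionitrile that prefers estrogen receptor beta, and E2 the steroid hormone estradiol. All cells grew in DMEM/F12 medium on coated plastic. The sources used here give neither the vessel, the strain and the number of cultures nor any vehicle for the compounds.

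Smooth muscle cells of the vessel wall answer injury and microbial products by secreting cytokines and chemokines and by displaying adhesion molecules that hold leukocytes. Many of these genes are switched on by NF-kB, a dimer of Rel proteins that is kept in the cytoplasm by IκBα, the product of Nfkbia, and enters the nucleus once IκBα is degraded. NF-kB also induces Nfkbia and Tnfaip3, which close the loop, so that Nfkbia RNA is often read beside the inflammatory genes. Estrogen receptors are known to restrain NF-kB targets in several vascular settings, and Cxcl12 is a known estrogen target in breast cells.

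Across these libraries the chemokines of acute inflammation, Ccl2, Ccl7 and Cxcl1, had 0 to 8 reads each, in hypoxia and control alike. Icam1 stood 1.37-fold above the control in hypoxia (log2 difference 0.46) and was above it in all 4 hypoxic libraries. These share 1 control library, and 31.8% of all rows with enough reads to be counted were likewise above it in all 4. Cxcl12 was 1.39-fold higher with In-Cl (log2 0.48) and 1.31-fold higher with DPN (log2 0.39) than in hypoxia alone, and 1.04-fold higher with E2 (log2 0.05). Il6 was lower with In-Cl than with DPN at the same dose (log2 -0.58). No member with enough reads to be counted differed by 2-fold in any comparison. Few rows did so at all, from 1.39% (E2 against hypoxia) to 5.41% (hypoxia against control) of those with enough reads.

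The values are deposited log2 numbers, of which 2 to that power minus 1 gives an adjusted read count, the level used below. Adjusted counts summed to 21763657 with In-Cl, 22185239 with DPN, 22090980 with E2, 22837695 in hypoxia and 20663687 in the control. Low values came in near equal steps, which put each library between about 20173080 (E2) and 24633197 (control) reads; in the control the steps were less regular, so its read numbers are the most approximate. Scaling to library totals instead moves the median of all rows by -0.14 in hypoxia against control and by at most 0.07 elsewhere. There was 1 library per condition, so no test between conditions was possible and no difference has a replicate check. Intervals given with a level are 95% exact Poisson intervals, and those given with a log2 difference are 95% exact Clopper-Pearson intervals of the reads in the 2 libraries. Both cover counting error only. Levels are compared between libraries for 1 gene, not between genes, since no transcript lengths were used.

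The 8 smooth muscle markers (among them Acta2, Tagln and Cnn1) all had a mean of at least 10, and their adjusted counts summed to 256573 with In-Cl, 279359 with DPN, 330752 with E2, 351433 in hypoxia and 297929 in the control. The leukocyte markers summed to 271 with In-Cl, 214 with DPN, 218 with E2, 221 in hypoxia and 220.1 in the control. Of their 9 measured genes, Itgam, Cd3e and Adgre1 were among those at 0 reads in every library. Cd14 made up most of each sum, with from 152 (hypoxia) to 220 (control) reads. It stood above hypoxia with In-Cl (log2 0.43, interval 0.13 to 0.75). Ptprc, Cd68 and Csf1r had between 6 and 33 reads per library. The endothelial markers summed to between 525 (control) and 679 (DPN), with Cdh5 and Kdr at 0 reads throughout. Tek had from 291 (control) to 442 (In-Cl) reads, and Flt1 from 59 (DPN) to 188 (control). The 5 fibroblast markers, led by Col1a1, which smooth muscle cells also express, summed to between 228973 (control) and 285620 (In-Cl). The smooth muscle sum was lowest in the In-Cl and DPN libraries, and the intervals of 6 of the 8 markers were below hypoxia with In-Cl (21.7% of all rows), 6 with DPN (14% of rows) and 5 with E2 (14.5% of rows). Cxcl12 was highest in the In-Cl and DPN libraries, and Il6 was below hypoxia with In-Cl. The part of the markers in these results was not tested.

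The windows below show the start regions of the 4 members with a mean of at least 100, on which the differences rest. Each runs from 250 bases before to 50 bases after the annotated transcript start, 5′ to 3′ on the gene's strand, from RefSeq on build GRCr8. Capitals mark a match on either strand to the NF-kB consensus GGGRNNYYCC, where R is A or G, Y is C or T and N any base.
Il6 (chr4:5894526-5894825, minus strand): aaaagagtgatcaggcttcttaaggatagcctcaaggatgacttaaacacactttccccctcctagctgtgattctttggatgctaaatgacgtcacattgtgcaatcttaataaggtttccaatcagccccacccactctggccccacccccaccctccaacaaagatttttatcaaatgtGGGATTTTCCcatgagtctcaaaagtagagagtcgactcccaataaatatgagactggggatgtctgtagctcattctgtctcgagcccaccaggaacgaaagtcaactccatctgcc
Nfkbia (chr6:78597023-78597322, minus strand): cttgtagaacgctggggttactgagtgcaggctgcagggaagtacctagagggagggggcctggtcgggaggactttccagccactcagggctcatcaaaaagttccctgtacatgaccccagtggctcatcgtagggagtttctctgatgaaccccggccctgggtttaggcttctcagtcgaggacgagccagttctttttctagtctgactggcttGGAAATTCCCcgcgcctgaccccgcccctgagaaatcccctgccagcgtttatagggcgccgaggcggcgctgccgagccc
Icam1 (chr8:27829595-27829894, plus strand): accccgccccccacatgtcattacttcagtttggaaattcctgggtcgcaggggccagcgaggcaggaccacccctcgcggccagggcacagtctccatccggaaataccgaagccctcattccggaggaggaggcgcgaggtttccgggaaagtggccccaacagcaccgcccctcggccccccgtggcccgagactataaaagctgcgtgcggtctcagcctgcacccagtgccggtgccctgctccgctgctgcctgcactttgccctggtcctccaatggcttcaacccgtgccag
Cxcl12 (chr4:152060531-152060830, plus strand): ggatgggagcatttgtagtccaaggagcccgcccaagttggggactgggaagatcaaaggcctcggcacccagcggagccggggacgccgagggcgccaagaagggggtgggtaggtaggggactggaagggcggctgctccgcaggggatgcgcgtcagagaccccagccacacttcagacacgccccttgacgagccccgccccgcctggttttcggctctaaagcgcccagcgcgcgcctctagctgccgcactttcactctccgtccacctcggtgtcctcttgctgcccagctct
The Il6 match begins 68 bases and the Nfkbia match 31 bases before the start, while the Icam1 and Cxcl12 windows held no exact match to this pattern. Near matches were not searched for. The Icam1 window holds tggaaattcc, which departs from the pattern only in its first letter.

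Windows were found for 8 of the 10 members, Tnfaip3 included, and 6 of the 8 held the NF-kB consensus, which 7.51% of all 33469 RefSeq windows of this length hold. Shorter pieces show the other matches among the measured genes. In Vcam1, GGGATTTCCC begins 93 bases before the start. In Cxcl1, GGGAATTTCC begins 84 bases before it and overlaps a second match, shifted by 1 base, on the opposite strand. In Ccl7, GGAAGATCCC, which reads as a match on the opposite strand, begins 59 bases before it. A form of the core of the hypoxia response element, ACGTG, was in 2 of the 8 windows (Vcam1 and Tnfaip3) and in 19.3% of all windows. In Vcam1, matches on opposite strands overlap. The other form of that core, GCGTG, was not searched for, and its share of all windows was not counted. It stands in the Icam1 window and, on the opposite strand, in the Cxcl12 window. The AP-1 site TGANTCA was in the Ccl7 and Tnfaip3 windows and in 7.33% of all, and the palindromic estrogen response element GGTCANNNTGACC in 0 of the 8 and in 0.0269% of all. Both strands were searched, and the matches describe the letters only.

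**Figure D1:**
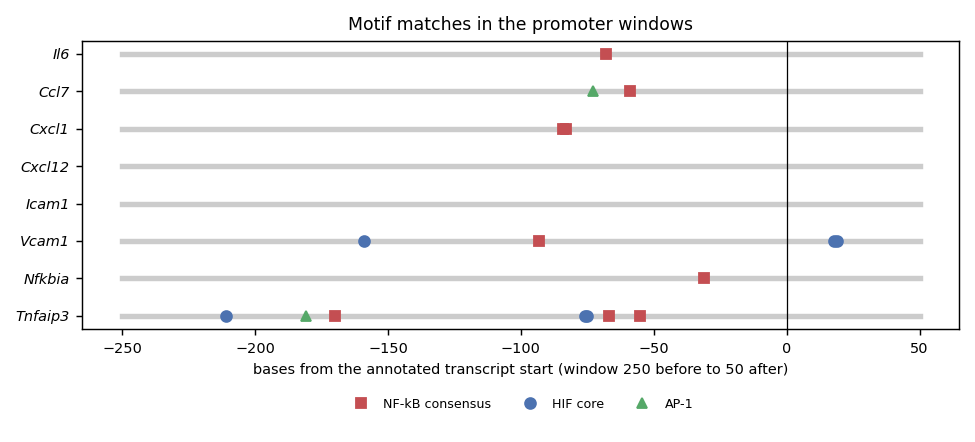
Position of the first base of each motif match, in bases from the annotated transcript start (x axis), in the 8 promoter windows (rows; grey bars span 250 bases before to 50 after the start); squares are NF-kB consensus matches, circles the ACGTG core and triangles AP-1 matches. NF-kB matches lie within 170 bases before the start in 6 windows, and the Icam1 and Cxcl12 windows hold no exact match to the patterns searched.

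Il6 encodes interleukin-6, a cytokine that vascular smooth muscle cells secrete and that acts through the shared receptor chain gp130. Its adjusted count was 130.2 with In-Cl, 196 with DPN, 191 with E2, 170.4 in hypoxia and 124 in the control, from 132, 185, 174, 165 and 148 reads in the same order. The DPN, E2 and hypoxia libraries were high, and the In-Cl and control libraries were low. Hypoxia stood 1.37-fold above the control (log2 0.45, interval 0.13 to 0.79), and 12.8% of all rows with a mean of at least 10 were at least as far above. With adjusted counts scaled to each library's total instead, the difference was 0.31 and its interval, -0.02 to 0.64, included 0. Fewer cells that express a gene and less RNA per cell cannot be told apart in such bulk libraries.

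Among the compounds, Il6 with In-Cl stood below hypoxia by a log2 difference of -0.39 (interval -0.73 to -0.05), which became -0.32 (interval -0.66 to 0.02) when scaled to library totals. With DPN it stood 0.20 above hypoxia (interval -0.11 to 0.51) and with E2, given at 10 nM, 0.16 above (interval -0.15 to 0.48), and both intervals included 0. In-Cl and DPN were the 1 pair of compounds given at a matched dose, and here the log2 difference of Il6 with In-Cl from DPN was -0.58 (interval -0.92 to -0.26), and scaled to totals the difference was -0.56 (interval -0.89 to -0.23). Of all rows, 1.84% were at least as far lower with In-Cl. In the order of levels, DPN, E2 and hypoxia did not differ from their neighbours beyond counting error, nor did In-Cl from the control; the gap lay between hypoxia and In-Cl.

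Lif encodes leukaemia inhibitory factor, which signals through gp130 as interleukin-6 does. Its adjusted count was 22.7 with In-Cl, 16.1 with DPN, 26.3 with E2, 29.9 in hypoxia and 28.8 in the control. The lowest value was in the DPN library, with 15 reads, against 29 reads in hypoxia. The log2 difference of DPN from hypoxia was -0.86, with an interval from -1.92 to 0.03 that included 0, although only 1.11% of all rows were as far below hypoxia. Every pair of neighbours in the order of levels overlapped, and so did the highest and the lowest library, so no difference in Lif was detectable at this depth. In-Cl stood 0.47 above DPN, with an interval from -0.48 to 1.56. Hypoxia stood 0.05 above the control (interval -0.70 to 0.83), a direction that turned to -0.09 when scaled to totals.

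**Figure D2:**
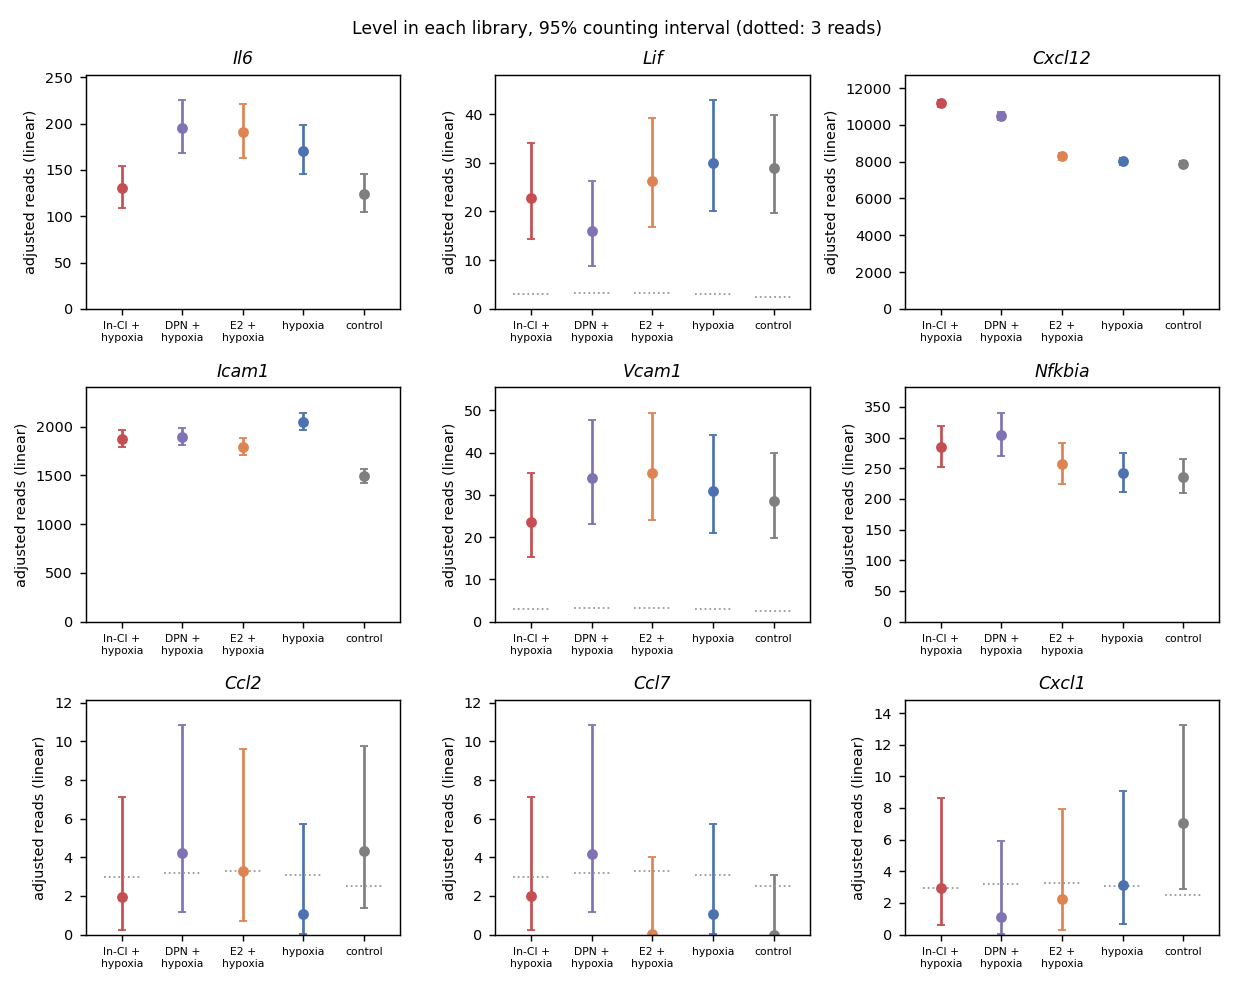
Adjusted read count (y axis, linear, from 0) of the 9 measured members in each of the 5 libraries (x axis); points are single libraries, bars their 95% Poisson counting intervals, and dotted marks the level of 3 reads where it is in range. Icam1 is lowest in the control (1495), Cxcl12 is highest with In-Cl (11166) and DPN (10469), and Ccl2, Ccl7 and Cxcl1 lie at 0 to 8 reads.

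Cxcl12 encodes stromal cell-derived factor, a chemokine that cells of the vessel wall make without an inflammatory stimulus and that recruits progenitor cells through Cxcr4. Its adjusted count was 11166 with In-Cl, 10469 with DPN, 8299.6 with E2, 8011 in hypoxia and 7857 in the control. In-Cl and DPN stood apart from the other 3 libraries, whose values lay close together. Against hypoxia, Cxcl12 was 1.39-fold higher with In-Cl (log2 0.48, interval 0.44 to 0.52) and 1.31-fold higher with DPN (log2 0.39, interval 0.34 to 0.43). Of all rows, 6.1% were at least as far above hypoxia with In-Cl and 5.06% with DPN, and among rows with a mean of at least 100 the shares were 3.56% and 1.96%.

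With E2 the difference from hypoxia was 0.05 (interval 0.01 to 0.10), a 1.04-fold step. At the matched dose Cxcl12 was 1.07-fold higher with In-Cl than with DPN (log2 0.09, interval 0.05 to 0.13), and 33.1% of all rows were at least as far above. Hypoxia without a compound stood 0.03 above the control (interval -0.02 to 0.07). Scaling to library totals turned that direction, to -0.12 (interval -0.16 to -0.07), and left the compounds above hypoxia by 0.55 (In-Cl), 0.43 (DPN) and 0.10 (E2).

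The other 3 chemokines were at the limit of detection. Ccl2, the monocyte attractant MCP-1, had 2 reads with In-Cl, 4 with DPN, 3 with E2, 1 in hypoxia and 5 in the control. Ccl7, a close relative of Ccl2 that also attracts monocytes, had 2 reads with In-Cl, 4 with DPN, 0 with E2, 1 in hypoxia and 0 in the control. At 0 reads its interval ran up to 4.04 adjusted counts with E2 and 3.09 in the control. Cxcl1, a neutrophil attractant, had 3 reads with In-Cl, 1 with DPN, 2 with E2, 3 in hypoxia and 8 in the control. The highest of these is the control value of Cxcl1, and in no library did any of the 3 pass 8 reads.

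The intervals at such counts are wide. Hypoxia over control gave a ratio of 0.461 for Cxcl1 (interval 0.0788 to 1.92) and 0.246 for Ccl2 (interval 0.0052 to 2.20). DPN over hypoxia gave 4.10 for Ccl2 and also for Ccl7 (both intervals 0.406 to 202). All of these include 1, so a change in the inducible chemokines was not detectable at this depth.

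Icam1 encodes intercellular adhesion molecule 1, a ligand of leukocyte beta-2 integrins. Its adjusted count was 1873 with In-Cl, 1897 with DPN, 1792 with E2, 2051 in hypoxia and 1495 in the control. The control was lowest, hypoxia without a compound was highest, and the 3 compound libraries lay between them. Hypoxia stood 1.37-fold above the control (log2 0.46, interval 0.36 to 0.55), as far as 12.7% of all rows, and scaled to totals the difference was 0.31 (interval 0.22 to 0.41).

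Below hypoxia, Icam1 stood by -0.13 with In-Cl (interval -0.22 to -0.04), by -0.11 with DPN (interval -0.21 to -0.02) and by -0.20 with E2 (interval -0.29 to -0.10). These are 1.10-fold, 1.08-fold and 1.14-fold differences. Scaled to library totals, the In-Cl and DPN intervals included 0 (-0.15 to 0.03 and -0.16 to 0.02) and the E2 interval did not (-0.24 to -0.05). Between In-Cl and DPN the difference was -0.02, with an interval from -0.11 to 0.08.

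Vcam1 encodes vascular cell adhesion molecule 1, a ligand of the integrin alpha-4 beta-1. Its adjusted count was 23.7 with In-Cl, 33.9 with DPN, 35.1 with E2, 31.0 in hypoxia and 28.5 in the control, from 24 to 34 reads per library. The In-Cl library was lowest, but no library differed from another beyond counting error. In-Cl stood -0.38 from hypoxia (interval -1.22 to 0.44) and -0.50 from DPN (interval -1.34 to 0.30), E2 stood 0.17 above hypoxia (interval -0.59 to 0.95), and hypoxia stood 0.11 above the control (interval -0.64 to 0.87), which turned to -0.03 when scaled to totals.

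Nfkbia encodes IκBα, the inhibitor that NF-kB itself induces. Its adjusted count was 284 with In-Cl, 304 with DPN, 256 with E2, 242 in hypoxia and 236 in the control. The levels followed the order of Cxcl12 except that DPN was above In-Cl, and none of the neighbouring libraries in that order differed beyond counting error. DPN stood 1.26-fold above hypoxia (log2 0.33, interval 0.08 to 0.59), as far as 6.59% of all rows. In-Cl stood 0.23 above hypoxia (interval -0.02 to 0.49, or 0.05 to 0.56 scaled to totals), E2 0.08 above (interval -0.18 to 0.35), and In-Cl -0.10 from DPN (interval -0.33 to 0.15). Hypoxia and control differed by 0.04 (interval -0.22 to 0.29), or by -0.11 scaled to totals (interval -0.37 to 0.15).

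**Figure D3:**
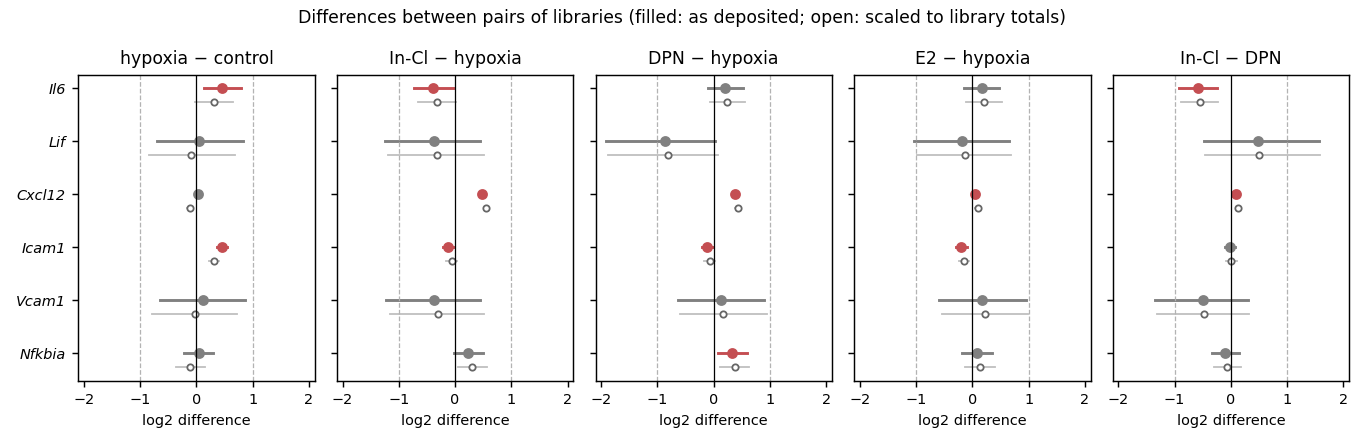
Log2 difference (x axis) of the 6 members with a mean of at least 10 (rows) in each of 5 comparisons (panels); filled points and lines are deposited values with 95% counting intervals, red where the interval lies off 0, open points the same scaled to library totals, and dashed lines mark 2-fold. Cxcl12 lies right of 0 with In-Cl (0.48) and DPN (0.39), and Il6 lies left of 0 for In-Cl against DPN (-0.58).

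Counted over the 6 members with a mean of at least 10, 0 differed by 2-fold in hypoxia against control, where 5.41% of the 10770 such rows did. The same count of 0 held for In-Cl against hypoxia (1.7% of rows), DPN against hypoxia (1.42%), E2 against hypoxia (1.39%) and In-Cl against DPN (1.49%). At 1.5-fold there was 1 member, Lif, lower with DPN than in hypoxia (4.62% of rows either way), and 1, Il6, lower with In-Cl than with DPN (5.22%). The Il6 value lies at the 1.5-fold threshold. It was short of it under median centring, a pseudocount of 10 (-0.55) and scaling to totals (-0.56), and past it under quantile normalization (-0.63). There were 0 in hypoxia against control (15.3% of rows), with In-Cl (6.16%) and with E2 (5% of rows).

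By counting intervals, Il6 and Icam1 were above 0 in hypoxia against control and 0 members were below, beside 26.1% of rows above and 31.6% below, or 15.9% above and 47.5% below when scaled to totals, where Icam1 was above, Cxcl12 below and Il6 at neither side. With In-Cl, Cxcl12 was above hypoxia and Il6 and Icam1 below it, beside 21.2% of rows above and 21.7% below. Scaled to totals, Cxcl12 and Nfkbia were above and 0 members below, beside 29.6% and 13.8% of rows. With DPN, Cxcl12 and Nfkbia were above and Icam1 below, beside 13.2% and 14% of rows; scaled, Icam1 was no longer below (20.1% and 8.64% of rows). With E2, Cxcl12 was above and Icam1 below, beside 14.3% and 14.5%, with the same calls when scaled (21.9% and 8.51%). Between In-Cl and DPN, Cxcl12 was above and Il6 below, beside 17.4% and 18%, again with the same calls when scaled (21% and 14.4%). Intervals off 0 were thus common in every pair of libraries.

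The control lay below all 4 hypoxic libraries for Il6, Cxcl12, Icam1 and Nfkbia, 4 of the 6 members, beside 31.8% of rows, and above all 4 for 0 members, beside 36.5% of rows; in all it was outside the range for 68.2% of rows. Scaled to library totals, a choice made after the data were seen, the control was outside the range for 2 members, Icam1 and Lif, beside 69.5% of rows. All 4 hypoxic libraries are set against 1 control library. All 3 compound libraries lay above hypoxia for Cxcl12 and Nfkbia (27.1% of rows) and below it for Lif and Icam1 (27.4% of rows), and these 3 share the hypoxia library. Over the 6 members the median log2 difference was 0.08 in hypoxia against control, -0.25 with In-Cl, 0.16 with DPN, 0.07 with E2 and -0.06 for In-Cl against DPN, beside medians of -0.03, 0.00, 0.00, 0.00 and 0.00 over all rows.

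**Figure D4:**
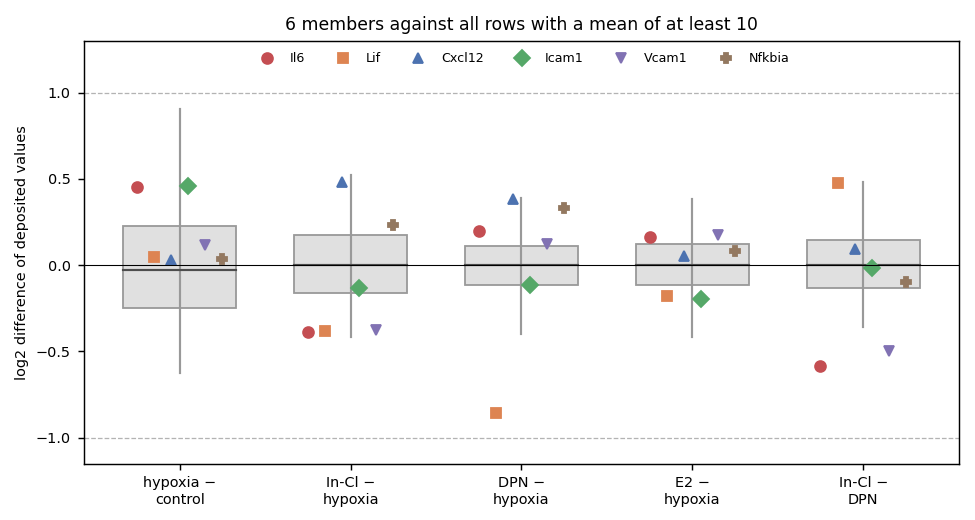
Log2 difference of deposited values (y axis) in the 5 comparisons (x axis); grey boxes span the middle quartiles and grey lines the 5th to 95th percentile of the 10770 rows with a mean of at least 10, coloured symbols are the 6 members, and dashed lines mark 2-fold. Lif with DPN (-0.86) and, for In-Cl against DPN, Il6 (-0.58) and Vcam1 (-0.50) lie below the grey lines, and no member reaches a dashed line.

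The receptors and signal carriers of the interleukin-6 family were measured beside the 2 cytokines, in a list of 14 genes of which 11 had a mean of at least 10. In hypoxia against control 2 were at least 1.5-fold higher, Il11 and Socs3, and 1 was lower, Clcf1, beside 15.3% of all rows either way. These 3 were picked out once values were known. Il11, a gp130 cytokine, had 45.3 adjusted counts in hypoxia and 16.2 in the control (log2 1.43, interval 0.70 to 2.37). Socs3, the feedback inhibitor that gp130 signalling induces, had 23.7 in hypoxia and 8.78 in the control (log2 1.34, interval 0.37 to 2.73, from 23 and 10 reads). With E2, Il11 was lower than in hypoxia (log2 -0.75, interval -1.57 to -0.04, from 24 and 44 reads). Scaled to library totals, that interval included 0. The Socs3 difference of -0.68 had an interval from -1.84 to 0.30 that included 0.

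Il6st, which encodes gp130, had 10064 adjusted counts with In-Cl, 8574 with DPN, 8688 with E2, 7906 in hypoxia and 5672 in the control. It was lowest in the control and highest with In-Cl, at 0.48 in hypoxia against control (interval 0.43 to 0.53) and 0.35 with In-Cl against hypoxia (interval 0.31 to 0.39). The transcription factor Stat3 was the lowest list member with a mean of at least 100 in hypoxia against control (-0.16, interval -0.25 to -0.07), and cardiotrophin, Ctf1, the highest (0.49, interval 0.31 to 0.66). Among these 5 better-read genes Ctf1 was the lowest with In-Cl (-0.22) and with E2 (-0.24). Scaled to totals, its In-Cl interval included 0 (-0.32 to 0.03). Stat3 was the highest of the 5 for In-Cl against DPN (0.28, interval 0.18 to 0.38). By intervals 5 of the 11 list members were above and 2 below the control in hypoxia, beside 26.1% and 31.6% of all rows. Scaled to totals they were 4 and 3, beside 15.9% and 47.5%. Against hypoxia 4 were above and 1 below with In-Cl (5 and 0 scaled), beside 21.2% and 21.7% of rows (29.6% and 13.8% scaled). With DPN 1 and 1 were so (2 and 0 scaled), beside 13.2% and 14% (20.1% and 8.64% scaled). With E2 1 and 2 were so (3 and 1 scaled), beside 14.3% and 14.5% (21.9% and 8.51% scaled). The receptor gene Il6r, picked out once values were known, had 24 reads with In-Cl, 9 with DPN, 14 with E2, 11 in hypoxia and 20 in the control. In-Cl stood 1.21 from DPN (interval 0.16 to 2.61) and 0.995 from hypoxia (interval -0.02 to 2.24, or 0.05 to 2.31 scaled to totals). The list median was 0.14 in hypoxia against control and against hypoxia 0.16 (In-Cl), -0.05 (DPN) and 0.05 (E2).

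Of the 30 genes of the NF-kB pathway list 26 had a mean of at least 10. In hypoxia against control 0 of them differed by 2-fold, beside 5.41% of all rows. Their median was -0.02, and by counting intervals 5 were above and 7 below the control (2 and 10 scaled to totals), beside 26.1% and 31.6% of all rows (15.9% and 47.5% scaled). Nfkbiz, an inhibitor-like protein that NF-kB induces, was the highest member with a mean of at least 100 (0.58, interval 0.28 to 0.87), with 218 adjusted counts in hypoxia and 146 in the control. Tnfrsf1a, the main receptor for tumour necrosis factor, was the lowest (-0.58, interval -0.69 to -0.46), with 1033 in hypoxia and 1540 in the control. The subunit genes Nfkb1 (-0.33) and Rela (0.09), also picked out once values were known, lay between them.

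Against hypoxia, the intervals of 5 of the 26 were above 0 and 3 below with In-Cl (10 and 2 scaled to totals), beside 21.2% and 21.7% of rows (29.6% and 13.8% scaled). With DPN they were 2 and 0 (4 and 0 scaled), beside 13.2% and 14% (20.1% and 8.64% scaled). With E2 they were 3 and 2 (7 and 1 scaled), beside 14.3% and 14.5% (21.9% and 8.51% scaled). The next ranks are among the 21 genes with a mean of at least 100. Traf6, an adaptor of interleukin-1 and Toll-like receptors, was the highest with In-Cl against hypoxia (0.58, interval 0.24 to 0.95) and against DPN (0.63, interval 0.28 to 1.01). Nfkbiz was the highest with DPN against hypoxia (0.43, interval 0.17 to 0.70) and the kinase gene Map3k7 with E2 (0.38, interval 0.28 to 0.48). Nfkbib, a second IκB, was the lowest with each of the 3 compounds (-0.39 for In-Cl, -0.26 with an interval including 0 for DPN, and -0.41 for E2). Scaled to totals, the In-Cl interval of Nfkbib also included 0 (-0.66 to 0.01). Below that mean, Il1rl1, the interleukin-33 receptor, had 23.6 adjusted counts with In-Cl, 81.2 with DPN, 53.8 with E2, 56.8 in hypoxia and 45.2 in the control. It was the 1 gene of the 26 past 2-fold with In-Cl against hypoxia, beside 1.7% of all rows. It was lower with In-Cl than in hypoxia by -1.23 (interval -2.02 to -0.54) and than with DPN by -1.74 (interval -2.51 to -1.10), from 24 reads with In-Cl, 77 with DPN and 55 in hypoxia. It was picked out once values were known.

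Among 10 other adhesion genes with a mean of at least 10, Ncam1, the neural cell adhesion molecule, was highest in hypoxia against control (2.32-fold, log2 1.21, interval 1.11 to 1.32), and Jam3, a junctional adhesion molecule, was the lowest with a mean of at least 100 (-0.52). E-selectin, Sele, known mainly from endothelium, had 179.5 adjusted counts in hypoxia and 106 in the control (0.75, interval 0.41 to 1.09). Of the other endothelial markers, Tek also stood above the control (0.60, interval 0.37 to 0.83) and Flt1 below it (-1.18, interval -1.61 to -0.78). Cdh5 and Kdr stood at 0 reads. By intervals 7 of the 10 were above and 3 below the control (4 and 4 scaled to totals), beside 26.1% and 31.6% of all rows (15.9% and 47.5% scaled). Itga4, which binds Vcam1, had 8 reads in hypoxia and 35 in the control (-1.70, interval -3.15 to -0.70), and Itgb2, whose product pairs with alpha chains that bind Icam1, had 28 reads in hypoxia and 80 in the control (-1.17, interval -1.89 to -0.58). Both were picked out once values were known. The lower level of Itgb2 was not shared by all hypoxic libraries. Its adjusted count was 68.6 in the E2 library, beside 66.7 in the control and 29.0 in hypoxia. The E2 library thus stood above hypoxia (1.21, interval 0.59 to 1.95). The DPN library had 16.2 adjusted counts of Itgb2 and the In-Cl library 35.5.

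Of 21 other chemokines, colony-stimulating factors and receptors, 4 had a mean of at least 10, and in hypoxia against control 1 of these was above and 1 below by intervals (0 and 4 scaled to totals), beside the same shares of rows. Ackr3, the second receptor of Cxcl12, had 8202 adjusted counts with In-Cl, 8718 with DPN, 9620 with E2, 9235 in hypoxia and 8676 in the control. It was lowest in the In-Cl library, where Cxcl12 was highest. With In-Cl and DPN it stood at -0.17 (interval -0.21 to -0.13) and -0.08 (interval -0.13 to -0.04) against hypoxia; scaled to totals the DPN interval included 0. Its 0.09 in hypoxia against control turned to -0.05 when scaled to totals. Cxcr4, the signalling receptor, had 0 reads in every library. The interval of 0 reads runs up to 3.09 adjusted counts in the control and 4.04 with E2. Csf1, the macrophage growth factor and the other gene of these with a mean of at least 100, was lower in hypoxia than in control cells (-0.50, interval -0.62 to -0.39) and stood above hypoxia with In-Cl (0.29) and DPN (0.32) but not with E2 (-0.04, interval -0.18 to 0.09).

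**Figure D5:**
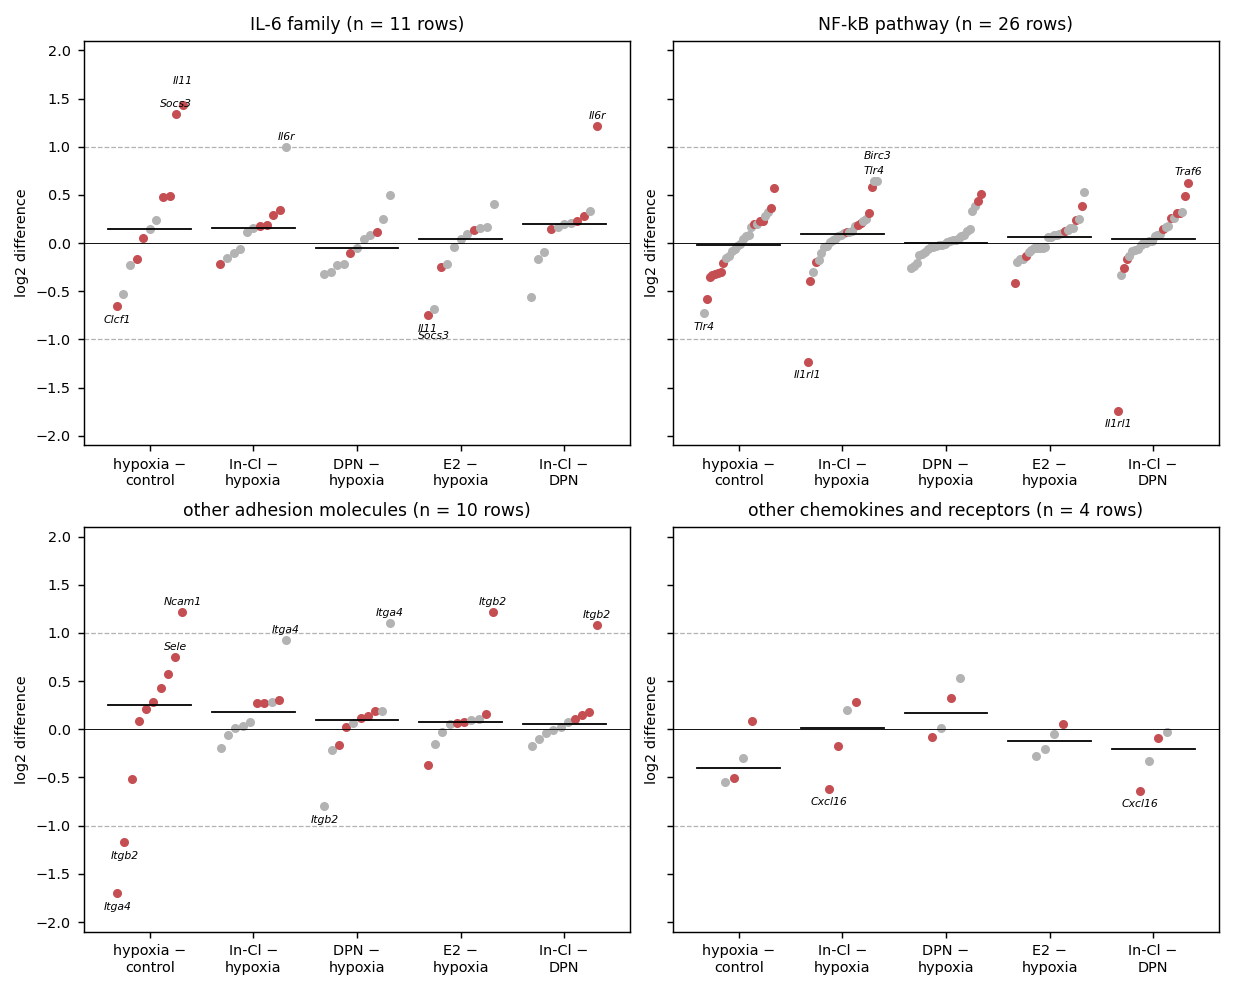
Log2 difference (y axis) of each gene with a mean of at least 10 in 4 lists (panels) and 5 comparisons (x axis); points are genes, red where the 95% counting interval lies off 0, bars are list medians, names mark differences of at least 1.5-fold and dashed lines 2-fold. Il11 (1.43) and Socs3 (1.34) are the highest of the IL-6 family in hypoxia against control, and Il1rl1 (-1.74) is the lowest of the NF-kB list for In-Cl against DPN.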

How the data were processed

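Per the labels' protocols, total RNA was taken with Trizol and made into stranded SMARTer libraries. The submitters' processing notes list TopHat, edgeR and rn6, without versions or roles; how reads were counted, and with which annotation and strand, is not given in the sources read. The authors deposited 1 table of log2 values per library; their range and steps are those of log2 of an adjusted count plus 1. The labels and headers do not state their scaling. Here 2 to the power of each value minus 1 was taken as the adjusted count. The value of 1 read was found from values up to 2.5 reads, and between 88.3% (control) and 100% of these lay within 0.2 read of a whole number; approximate reads are adjusted counts over this step. Values under 0.5 read count as 0. Rows with a mean of at least 10 over the 5 libraries (10770 rows) gave the background, and rows of at least 100 (8872) the named list genes. A member was counted at 2-fold. With 1 library per condition no test was run. The interval code was tested on simulated data. Of 4 members with a mean of at least 100, 0 spanned 2-fold, so no genes of like pattern were named.

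The members and lists were chosen with earlier results of these data known. From the lists, the rule named the highest and lowest gene with a mean of at least 100 in each comparison. Most further genes are marked as chosen after their values were seen. Cxcr4, the single marker genes (such as Cd14, Tek and Flt1) and some comparisons (such as Sele in hypoxia against control) carry no mark. The rule did not name these either. Alternatives were median centring, quantile normalization, a pseudocount of 10, raised low values, summed rows, library totals, a 1.5-fold threshold, other filters and other hypoxic libraries. Python 3.11.15, numpy 2.4.6, pandas 2.3.3, scipy 1.17.1 and matplotlib 3.10.9 were used.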

Additional observations from a re-analysis of the deposited data

How the results depend on the processing

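Of the 30 member log2 differences, all kept their direction and stayed within their counting interval under median centring, a pseudocount of 10, low values raised to 3 reads and summed rows; 1 moved under quantile normalization and 4 under scaling to library totals, all in Cxcl12 or Icam1. At a 1.5-fold threshold, the count of members was 1 for DPN against hypoxia and 1 for In-Cl against DPN, against 0 at 2-fold. Scaled to library totals, the count of members with the control outside the range of the 4 hypoxic libraries was 2 (69.5% of rows), against 4 (68.2%); the scaling lowers all hypoxic values relative to the control. Cxcl12 in hypoxia against control was -0.04 under quantile normalization, and 0.07 with an interval above 0 under median centring; Lif and Vcam1 there turned to -0.20 and -0.13 under quantile normalization, within their intervals. With another hypoxic library in place of hypoxia, Il6 against control was 0.07 (In-Cl) and Lif -0.81 (DPN). Depth limits Ccl2, Ccl7 and Cxcl1, at 8 reads or fewer. No paired analysis was possible because each condition has 1 library.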

Other observations

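Chemokine ligands beyond the members were read from all 34 rows whose symbol names one, a pattern chosen after the data were seen. Of these 34, 17 had 0 reads in every library, and 21 had at most 3 reads in every library. Only 7 had a mean of at least 10, Cxcl12 among them, and 3 had a mean of at least 100. Cxcl14, a chemokine of resting tissue, had 189 adjusted counts with In-Cl, 254 with DPN, 216 with E2, 248 in hypoxia and 311 in the control. It was highest in the control and lowest with In-Cl. Cxcl16, a membrane-bound chemokine, had 49.3 with In-Cl, 77.4 with DPN, 66.1 with E2, 76.4 in hypoxia and 94.1 in the control, in the same order at both ends. The log2 difference of Cxcl16 between In-Cl and DPN was -0.64 (counting interval -1.19 to -0.11). Ccl27 lay the other way, with 37 reads with In-Cl, 25 with DPN, 14 with E2, 11 in hypoxia and 20 in the control. Against hypoxia it was higher with In-Cl (log2 1.59, counting interval 0.69 to 2.81) and with DPN (1.14, counting interval 0.15 to 2.39).

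Ccl24 had 122 adjusted counts with In-Cl, 129 with DPN, 100.1 with E2, 115 in hypoxia and 84.6 in the control, lowest in the control. Ccl26 had 12 reads with DPN and 0 reads in each of the other 4 libraries. These are single libraries, and no test was possible.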
